A study of Homo sapiens with 12 samples.

Results

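Transcript levels of genes for cholesterol synthesis, its sensing, uptake, efflux and storage were measured in 2 bladder cancer cell lines treated with CM272. The group was a list of 34 genes chosen by role, with earlier results of these data known. A gene was taken as measured where a row of the array table carried its symbol and no other. By this rule 30 of the 34 were measured, each by 1 transcript cluster, out of 22465 genes in all. NPC2 and MYLIP shared their rows with the symbol of a microRNA gene, and FDFT1 and NR1H2 had no row under their symbol. These 4 genes were not analysed here.

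RT112 and 5637 are established human bladder cancer cell lines, and CM272 is a small molecule that inhibits both G9a, a histone methyltransferase, and DNA methyltransferases. Total RNA was hybridised to whole-transcript arrays, with 3 arrays each for untreated RT112, RT112 with CM272, untreated 5637 and 5637 with CM272. The compound was given at its IC50, per the labels' protocols, and the labels state neither that concentration nor the duration. All groups were grown in the same medium with fetal bovine serum and an antibiotic-antimycotic mix, the untreated groups are labelled as receiving no treatment, and no vehicle is named. The labels number the replicates without saying whether they were separate cultures, so p-values cover only the spread among arrays, which may be technical.

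Cells make cholesterol from acetyl-CoA through mevalonate, isoprenoid diphosphates, squalene and lanosterol. When membrane cholesterol is low, SCAP escorts the precursor of the transcription factor SREBP-2 out of the endoplasmic reticulum, and SREBP-2 then switches on genes of synthesis and uptake. INSIG proteins hold SCAP back when sterols are plentiful. Oxysterols, in turn, activate the LXR receptors, which induce the exporters ABCA1 and ABCG1.

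The promoter windows below belong to members whose changes stand at the ends of the list, and to the gene for SREBP-2 itself. Each run gives the 250 bases before an annotated transcription start, 5′ to 3′ on the gene's strand, from RefSeq (GRCh38.p14). Capitals mark the letters of an SREBP site, TCACNCCAC, or of the box CCAAT bound by NF-Y, which acts beside SREBP at many sterol genes, on either strand. MSMO1 (chr4:165327419-165327668, plus strand) and DHCR7 (chr11:71448394-71448643, minus strand) are shown as the enzyme genes that fell furthest, HMGCS1 (chr5:43313413-43313662, minus strand) and PMVK (chr1:154936720-154936969, minus strand) as those that rose most, and STARD4 (chr5:111512536-111512785, minus strand) and SREBF2 (chr22:41832855-41833104, plus strand) were added after their values and matches were seen.
MSMO1: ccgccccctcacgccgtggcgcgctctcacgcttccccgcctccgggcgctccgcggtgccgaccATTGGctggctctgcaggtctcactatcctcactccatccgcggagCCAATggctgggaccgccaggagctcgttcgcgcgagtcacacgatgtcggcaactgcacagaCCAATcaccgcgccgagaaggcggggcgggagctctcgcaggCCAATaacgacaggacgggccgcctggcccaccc
DHCR7: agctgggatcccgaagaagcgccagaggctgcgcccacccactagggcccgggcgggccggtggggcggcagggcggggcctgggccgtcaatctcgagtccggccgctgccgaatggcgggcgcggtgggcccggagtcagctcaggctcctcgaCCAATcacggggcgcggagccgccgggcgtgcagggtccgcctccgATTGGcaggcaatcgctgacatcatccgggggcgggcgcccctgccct
HMGCS1: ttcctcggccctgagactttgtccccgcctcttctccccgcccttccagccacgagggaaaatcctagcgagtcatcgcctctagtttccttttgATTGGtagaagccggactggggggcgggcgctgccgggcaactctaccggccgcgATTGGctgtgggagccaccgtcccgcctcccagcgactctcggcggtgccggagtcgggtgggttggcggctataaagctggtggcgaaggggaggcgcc
PMVK: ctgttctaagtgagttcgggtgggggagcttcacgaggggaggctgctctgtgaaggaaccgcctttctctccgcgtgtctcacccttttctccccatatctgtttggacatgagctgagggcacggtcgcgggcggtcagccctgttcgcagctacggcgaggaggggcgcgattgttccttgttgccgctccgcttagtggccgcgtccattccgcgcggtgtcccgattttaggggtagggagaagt
STARD4: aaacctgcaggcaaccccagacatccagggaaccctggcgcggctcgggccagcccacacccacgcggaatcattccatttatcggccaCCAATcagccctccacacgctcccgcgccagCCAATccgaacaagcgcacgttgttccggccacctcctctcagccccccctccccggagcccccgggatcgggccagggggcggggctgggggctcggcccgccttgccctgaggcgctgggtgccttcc
SREBF2: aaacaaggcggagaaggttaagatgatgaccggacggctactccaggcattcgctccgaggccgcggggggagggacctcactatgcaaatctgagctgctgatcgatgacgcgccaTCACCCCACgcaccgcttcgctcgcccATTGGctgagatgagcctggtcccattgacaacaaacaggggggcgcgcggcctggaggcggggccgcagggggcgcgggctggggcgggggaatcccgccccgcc

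Of the 30 measured members, 27 had a window in the table, taken at the start farthest upstream. The box CCAAT lay in 15 of these 27, against 33.0% of 27305 genes in the table. It was found in 7 of the 9 members with a window that fell in all 3 scalings described below. Of those that rose it was found in 3 of 5, and of the others in 5 of 13. With every annotated start counted, the box lay before 8 of the 9, 3 of the 5 and 8 of the 13. No share of all genes was computed that way. PMVK, shown above without capitals, held neither motif. MSMO1 carried 4 such boxes, and HMGCS1, which moved the other way, carried 2 before its farthest start and none before its next start downstream. DHCR7 held none before its farthest start and 2 before the next start downstream, the one printed. All other printed windows stand before the farthest start, and all counts but those over every start take DHCR7 at its farthest start. The SREBP site was found before SREBF2 alone among the 27, from position -133 relative to the start, against 0.868% of all genes. The GC box GGGCGG, bound by SP1, lay in 22 of 27 members and 42.2% of all genes, and so in most of these windows. The LXR repeat known as DR4 lay in 0 of 27 and 0.0146% of all genes. All 4 motifs were searched on both strands, and overlaps of 1 motif with another were kept. A match is a description of letters only, and binding was not measured.

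The array table held 70523 rows. The untreated 5637 arrays were left out because their values do not belong to the rows they stand in: over transcript clusters their mean correlated with the treated 5637 mean at r = 0.0274, against 0.940 between untreated and treated RT112. A response of 5637 to the compound could therefore not be computed, and treated 5637 serves as a further group. The median log2 value over the 22465 genes was 5.53 ± 0.01 (SD, n = 3) in untreated RT112, 4.97 ± 0.01 in treated RT112 and 5.02 ± 0.00 in treated 5637. Treated RT112 arrays carried 3 exactly equal values for 2726 genes (12.1%), treated 5637 arrays for 3440 (15.3%) and untreated RT112 arrays for 0. Among the members, 8 were tied in this way in treated RT112 and 5 more had 2 equal values there. Such ties give an SD of 0. Ties also crossed the lines: 1 to 5 members were exactly equal between a treated RT112 array and a treated 5637 array. Between treated and untreated RT112 arrays 0 members were. Any difference in how treated and untreated arrays were processed coincides with the treatment, and the 2 cannot be told apart. The epithelial markers KRT8, KRT18, KRT19, EPCAM and CDH1 lay between 9.03 and 14.48 in all 3 groups, and 5 leukocyte markers lay between 3.61 and 5.29. Of 6 stromal and endothelial markers, COL1A1 was the highest, at 5.43 in untreated RT112, 5.34 in treated RT112 and 7.25 in treated 5637. Fewer cells and less RNA per cell cannot be told apart in such bulk values.

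**Figure D1:**
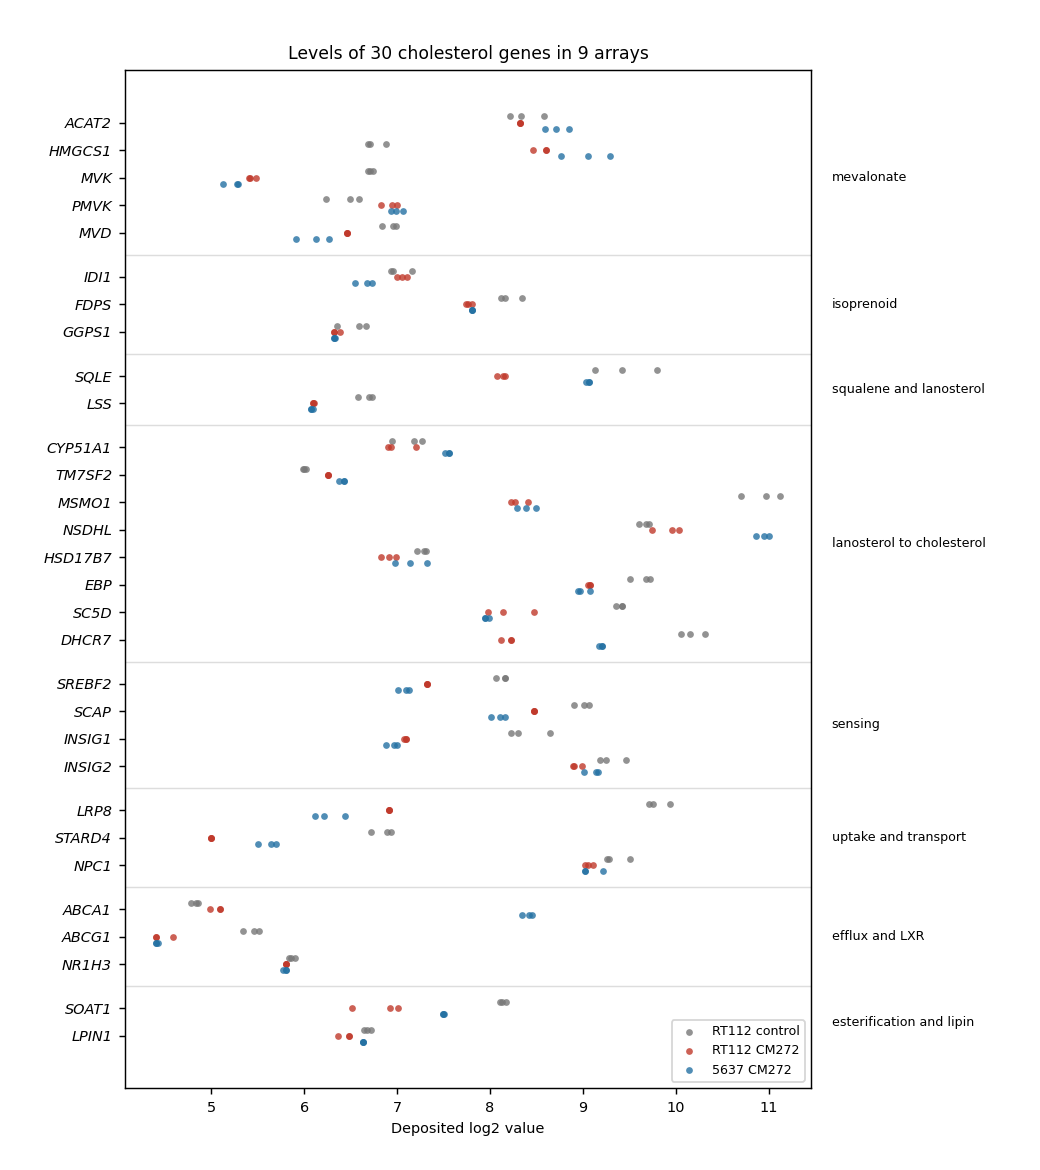
Deposited log2 values (horizontal axis) of the 30 measured genes, grouped by step, with 1 point per array for untreated RT112 (grey), treated RT112 (red) and treated 5637 (blue). LRP8, MSMO1, DHCR7 and STARD4 stand far lower in treated than in untreated RT112, HMGCS1 far higher, and ABCA1 sets treated 5637 (8.35 to 8.45) apart from both RT112 groups.

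The comparison of treated with untreated RT112 asked how the pathway's transcripts differ after the compound. A few genes moved strongly, and most moved by less than 2-fold in at least 1 of 3 scalings. The lipoprotein receptor LRP8, the sterol oxidase MSMO1, the last enzyme DHCR7 and the sterol carrier STARD4 fell to at most 0.5 of their level in each of 3 scalings, and HMGCS1, at the entry to the pathway, rose by at least 2-fold. Genes were tested with limma over all 22465 genes as deposited, after centring each array on its median, and after quantile normalization of the 9 arrays. The median of all genes moved by -0.57 on the deposited log2 values, by -0.01 after centring and by -0.04 after quantile normalization. A deposited change is therefore read against -0.57, and a gene is said to rise or fall here only where all 3 scalings called it the same way at an adjusted p below 0.05.

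By that measure 5 of 30 members rose (16.7%) and 11 fell (36.7%). Of all genes 10.8% rose and 32.4% fell, so the shares of the list lie near the background and are no result about the list. With at least 2-fold in each scaling, 1 member rose (3.33%) and 4 fell (13.3%), against 2.86% and 3.32% of all genes. As the list was chosen with earlier results of these data known, its shares and ranks only describe it. The rank of a change among all genes does not move when whole arrays are shifted. LRP8 ranked 28 from the lowest and MSMO1 50, while HMGCS1 ranked 220 from the highest. In the lowest 10% of all genes stood 9 of the 30 members, and in the highest 10% stood 2. Among the 11233 genes at or above the median level over the 9 arrays, 12.2% stood in that lowest 10% and 17.5% in the highest, and 29 of the members, all but ABCG1, belong to this brighter set. The members' changes spread over an SD of 0.95 across genes, against 0.72 for all genes, and their median was -0.45 as deposited and 0.11 after centring. On the deposited values alone 5 members were called higher and 21 lower, against 10.8% and 74.2% of all genes, and after centring 12 and 11, against 33.9% and 34.8%. After quantile normalization 10 and 13 were called, against 31.2% and 37.2%, and with arrays centred on the medians of all rows 15 and 11, against 39.8% and 28.0%.

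**Figure D2:**
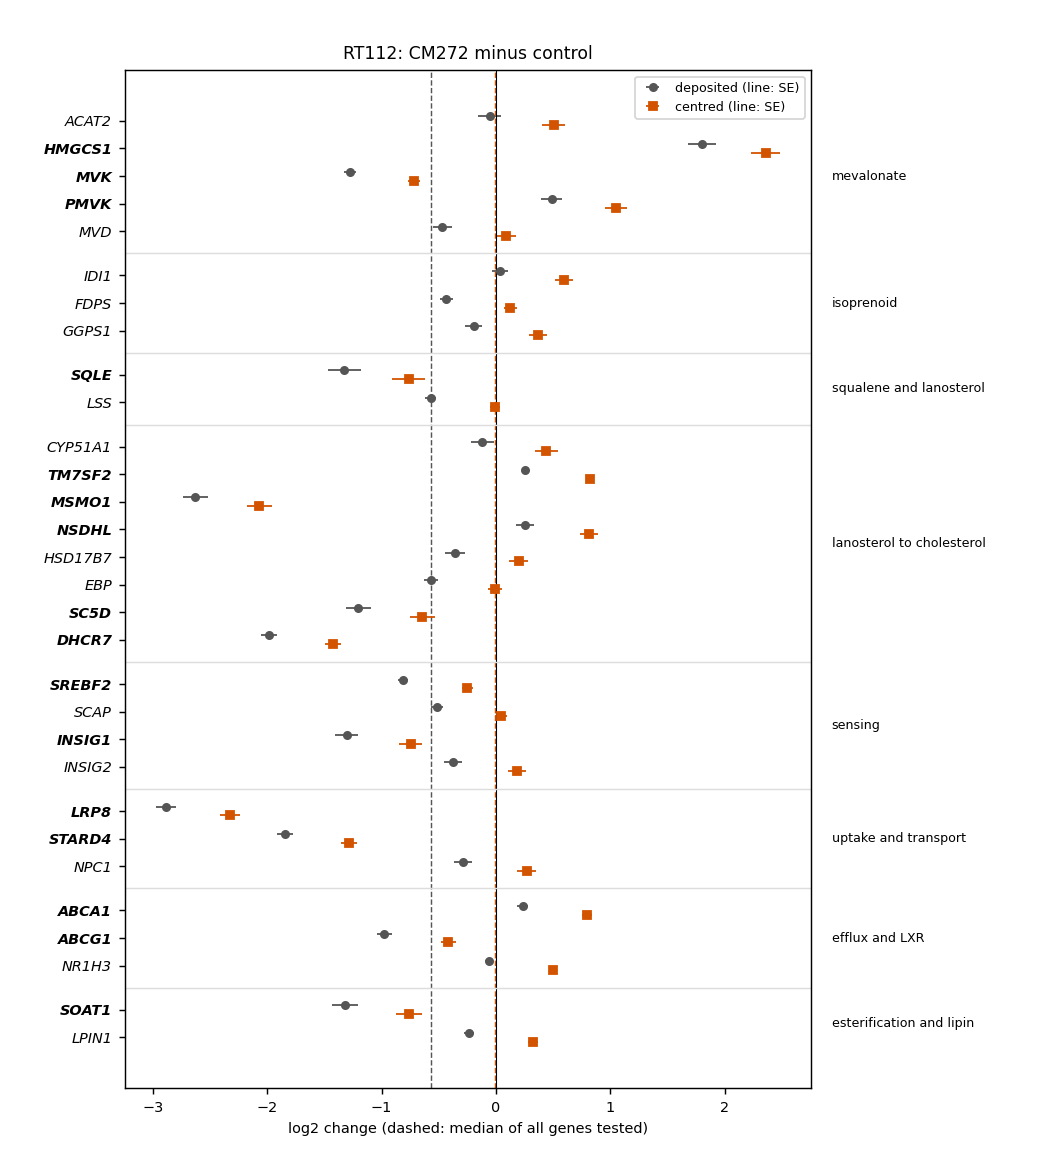
Log2 change of each member in RT112, CM272 minus control (horizontal axis), as deposited (grey circles) and after centring (orange squares), with the SE of the limma fit as a line. Dashed lines mark the median of all 22465 genes in each scaling, bold names mark the 5 members that rose and the 11 that fell in all 3 scalings, and the members of 1 step often lie on both sides of these lines.

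In the first block of reactions, which builds mevalonate and phosphorylates it, the genes moved apart. HMGCS1 encodes the cytosolic HMG-CoA synthase. It stood at 6.71, 6.69 and 6.88 in the untreated RT112 arrays and at 8.60, 8.46 and 8.60 in the treated ones, with no overlap. Its level rose from 6.76 ± 0.10 to 8.55 ± 0.08 (SD, n = 3), or by 1.80 ± 0.12 log2 units (SE; limma, adjusted p = 1.88e-06) and by 2.36 after centring, or 3.48-fold and 5.12-fold. PMVK, phosphomevalonate kinase, had untreated values of 6.58, 6.23 and 6.49 and treated values of 6.83, 6.996 and 6.94. All 3 treated values were higher, the log2 change was 0.49 ± 0.09 (adjusted p = 0.001), and it was 1.05 after centring. MVK, the kinase just before it, went the other way. Its untreated values of 6.68, 6.74 and 6.70 lay above treated values of 5.41, 5.41 and 5.48, and it fell by 1.28 on the log2 scale (SE 0.05, limma, adjusted p = 1.29e-07) and by 0.72 after centring.

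The thiolase gene ACAT2, which makes acetoacetyl-CoA, overlapped between groups, at 8.22 to 8.58 untreated and 8.32 in all 3 treated arrays (log2 change -0.06, adjusted p = 0.597, limma), and its change was 0.50 after centring. MVD, the mevalonate diphosphate decarboxylase, changed by -0.47 ± 0.09 as deposited and by 0.09 after centring (adjusted p = 0.362). Its direction thus rests on the scaling.

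The 3 isoprenoid genes lay close to the median of all genes or above it. IDI1, the isomerase, changed by 0.03 ± 0.07 as deposited and by 0.59 after centring. FDPS, which makes farnesyl diphosphate, changed by -0.43 ± 0.06 and 0.13, and GGPS1, which makes geranylgeranyl diphosphate for protein prenylation, by -0.19 ± 0.08 and 0.37. None of the 3 was called alike in all scalings. The RefSeq table names 3 pseudogenes of IDI1, 10 of FDPS, 3 of CYP51A1 and 2 of HSD17B7, and since probe sequences were not used here, the values of these 4 genes are uncertain.

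At the committed steps to sterols, SQLE fell and LSS stayed at the median of all genes. SQLE encodes squalene epoxidase, a rate-limiting enzyme of the later pathway. Its untreated values were 9.12, 9.42 and 9.80 and its treated values 8.14, 8.08 and 8.16. The untreated arrays were the more scattered, and the groups did not overlap. The log2 change was -1.32 ± 0.14 (adjusted p = 2.99e-05, limma), -0.76 after centring and -1.06 after quantile normalization. For LSS, lanosterol synthase, the change was -0.57 ± 0.05 as deposited, equal to the shift of all genes, and -0.01 after centring (adjusted p = 0.834).

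Between lanosterol and cholesterol the 8 measured enzymes split 3 ways, with 3 that fell, 2 that rose and 3 called neither way in all scalings. Of all genes 32.4% fell and 10.8% rose by that measure, so these counts are read as a description of the 8 genes. MSMO1, the sterol C4-methyl oxidase, showed the largest enzyme change. Its untreated values were 10.97, 10.70 and 11.12, and its treated values 8.41, 8.22 and 8.27. All treated arrays lay more than 2 log2 units below all untreated ones, with a change of -2.63 ± 0.11 (adjusted p = 1.34e-07, limma) and of -2.07 after centring, which is 6.19-fold and 4.20-fold. DHCR7 reduces the last precursor to cholesterol. It stood at 10.15, 10.32 and 10.05 untreated and at 8.23, 8.22 and 8.11 treated, and the groups were far apart. The change was -1.98 ± 0.07 (adjusted p = 7.3e-08), or -1.42 after centring. SC5D, the desaturase just before it, had untreated values of 9.42, 9.42 and 9.35 and treated values of 8.14, 8.47 and 7.97. Here the treated arrays were the scattered ones, and the change was -1.20 ± 0.11 (adjusted p = 1.07e-05) and -0.64 after centring.

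NSDHL and TM7SF2 act in the same stretch of the pathway and rose. NSDHL, which works in sequence with MSMO1 to remove the C4 methyl groups, had values of 9.60, 9.68 and 9.71 untreated and 10.04, 9.74 and 9.96 treated. The nearest arrays of the groups almost touched. Its log2 change was 0.25 ± 0.08 (adjusted p = 0.0154, limma) as deposited and 0.81 after centring, and as deposited it lost the call without treated replicate 1 (adjusted p = 0.054) or without untreated replicate 1 (adjusted p = 0.0538). TM7SF2, a sterol C14-reductase, stood at 5.99, 5.99 and 6.02 untreated and at 6.26 in all 3 treated arrays. The change was 0.26 ± 0.03 (adjusted p = 0.000103) and 0.82 after centring. The demethylase CYP51A1 overlapped between groups (-0.12 ± 0.10, adjusted p = 0.284) and changed by 0.44 after centring. EBP, the sterol isomerase, changed by -0.57 ± 0.06 and -0.01, and HSD17B7, the 3-ketosteroid reductase of this route, by -0.36 ± 0.09 and 0.20. Neither was called after centring (adjusted p = 0.889 for EBP and 0.0644 for HSD17B7, limma).

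Among the genes that sense sterols, SREBF2 and INSIG1 fell and SCAP and INSIG2 were not called alike. INSIG1 is itself a target of SREBP-2. It stood at 8.23, 8.30 and 8.65 in untreated arrays and at 7.09, 7.07 and 7.10 in treated ones, without overlap, a change of -1.30 ± 0.10 log2 units (limma, adjusted p = 3.51e-06) and of -0.75 after centring. For its paralog INSIG2 the values were 9.19, 9.25 and 9.47 untreated and 8.89, 8.99 and 8.90 treated. That change was -0.37 ± 0.08 as deposited (adjusted p = 0.002) and 0.19 after centring (adjusted p = 0.0705). SREBF2, which encodes SREBP-2 and carries the SREBP site printed above, had untreated values of 8.07, 8.16 and 8.16 and 7.32 in all 3 treated arrays. It fell by 0.81 on the log2 scale (SE 0.05, adjusted p = 6e-07), by 0.25 after centring and by 0.45 after quantile normalization. SCAP changed by -0.52 ± 0.06, by 0.04 after centring (adjusted p = 0.51) and by -0.22 after quantile normalization.

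The largest fall of all members was in a receptor. LRP8 encodes the apolipoprotein E receptor 2, of the lipoprotein receptor family. Its untreated values were 9.71, 9.93 and 9.75, and all 3 treated arrays gave 6.92. The change was -2.88 ± 0.09 (adjusted p = 5.65e-08, limma), -2.32 after centring and -2.57 after quantile normalization, or 7.38-fold, 5.00-fold and 5.93-fold. STARD4, a soluble protein that carries sterol between membranes, stood at 6.93, 6.72 and 6.89 untreated and at 5.00 in all 3 treated arrays. It fell by 1.85 (SE 0.07, adjusted p = 9.56e-08), and by 1.29 after centring. That treated level lay only just above the array median of 4.97. Both SEs rest in part on a treated SD of 0. NPC1, which exports cholesterol from lysosomes, changed by -0.29 ± 0.08 as deposited, by 0.27 after centring and by -0.03 after quantile normalization.

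The values of the 2 exporters moved in opposite directions at low levels, near those at which leukocyte markers moved too. ABCA1, which loads cholesterol onto lipid-poor apolipoproteins, stood at 4.85, 4.84 and 4.78 untreated and at 4.99, 5.09 and 5.10 treated. It rose by 0.23 ± 0.05 (adjusted p = 0.00171, limma) and by 0.79 after centring, from a level below the untreated array median of 5.53 to one just above the treated median of 4.97. ABCG1, which passes cholesterol to larger lipoprotein particles, stood at 5.52, 5.34 and 5.46 untreated and at 4.403, 4.582 and 4.403 treated. Its change was -0.98 ± 0.06 (adjusted p = 1.42e-06) and -0.42 after centring, and it was below the array median in both groups. The deposited RT112 means of 4 leukocyte markers fell, CD79A from 5.11 to 4.22, PTPRC from 4.54 to 3.67, LYZ from 4.38 to 3.63 and CD3E from 5.29 to 4.61. That of CD14 rose from 3.77 to 4.24. Whether the values of ABCA1 and ABCG1 in RT112 reflect expressed transcripts was not tested. NR1H3, which encodes LXR-alpha, changed by -0.06 ± 0.03 (adjusted p = 0.121) as deposited and by 0.50 after centring (adjusted p = 5.55e-06).

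SOAT1 encodes the enzyme that esterifies cholesterol for storage. Its untreated values of 8.13, 8.10 and 8.17 lay above treated values of 7.003, 6.92 and 6.52, the last of which stood apart from the other two. The change was -1.32 ± 0.11 (adjusted p = 6.56e-06, limma) and -0.76 after centring. LPIN1, a phosphatidate phosphatase gene that SREBP also regulates, changed by -0.24 ± 0.04 as deposited and by 0.32 after centring, so its direction turned with the scaling.

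**Figure D3:**
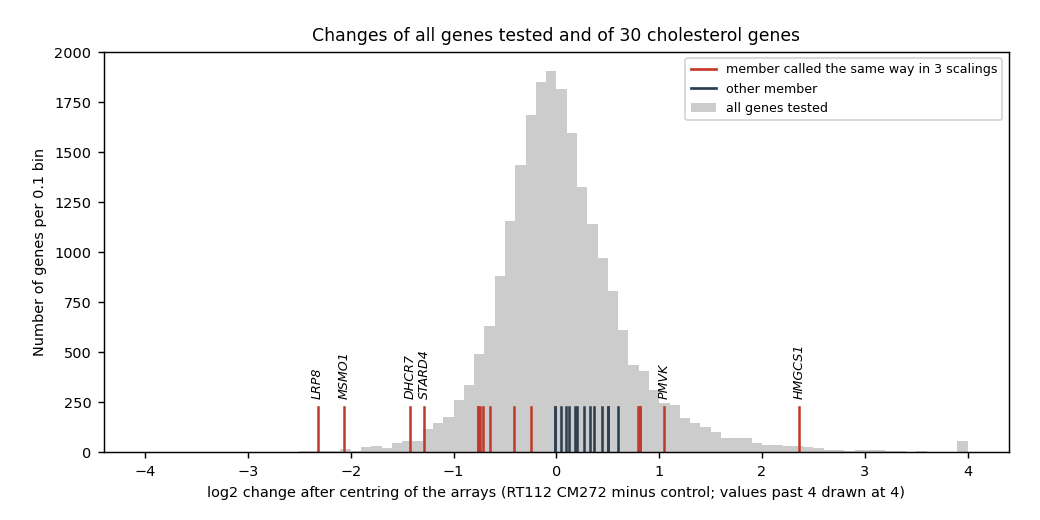
Number of genes (vertical axis) by log2 change in RT112 after centring of the arrays (horizontal axis, CM272 minus control), for all 22465 genes, with the 30 members as vertical lines, red where called the same way in all 3 scalings. LRP8 at -2.32 and MSMO1 at -2.07 lie in the left tail and HMGCS1 at 2.36 in the right, while most other members lie within the bulk.

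A further list of 50 genes around the pathway had 41 measured members. It was chosen by role, with earlier results of these data known, so its counts are a description. In RT112 5 of these rose (12.2%) and 13 fell (31.7%) in all 3 scalings, again near the 10.8% and 32.4% of all genes, and their median change was -0.61 log2 units as deposited and -0.05 after centring. The lowest were PDSS1 at -2.43 ± 0.05, which makes the side chain of coenzyme Q, SREBF1 at -2.09 ± 0.08, which encodes SREBP-1, ERLIN1 at -1.88 ± 0.11, an endoplasmic reticulum protein that restrains SREBP activation, and MBTPS2 at -1.56 ± 0.16, the site-2 protease that frees SREBP from the membrane. All 4 fell past 2-fold in each of the 3 scalings, and their changes after centring were -1.87, -1.53, -1.32 and -1.001. MBTPS1, the site-1 protease, changed by -0.68 ± 0.08 as deposited and by -0.12 after centring (adjusted p = 0.234, limma). All 8 measured genes of SREBP processing and sterol-regulated degradation were called lower as deposited, where 74.2% of all genes were. After centring 5 of 8 were, against 34.8%, and after quantile normalization 8 of 8, against 37.2%. The other steps of this list went both ways after centring, where 33.9% of all genes were called higher. Transfer and ester hydrolysis had 6 of 7 higher and 1 lower, and oxysterols and efflux 6 of 10 higher and 3 lower. Uptake and lysosome had 3 of 8 higher and 5 lower, and the prenyl branches 2 of 7 higher and 1 lower. The 1 late gene, ERG28, was higher. These counts only describe the steps. SREBF1 stood at 8.93, 9.23 and 9.002 untreated and at 6.87, 7.06 and 6.97 treated. The highest were the nuclear receptor gene RXRB at 0.46 ± 0.10, a partner of LXR, the sterol carrier GRAMD1B at 0.33 ± 0.09, PDSS2 at 0.29 ± 0.06 and the oxysterol-binding protein gene OSBP at 0.28 ± 0.06. None of these reached 2-fold in each scaling.

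Treated 5637 was set against treated RT112 to ask where the 2 lines differ under the compound. This is a difference between lines and not a response. It shares the treated RT112 arrays with the comparison above. ABCA1 stood out: its values of 8.45, 8.42 and 8.35 in treated 5637 faced 4.99, 5.09 and 5.10 in treated RT112. The log2 difference was 3.35 ± 0.05 (adjusted p = 2.37e-09, limma), ranked 51 from the highest of all genes, and it was 3.30 after centring. The treated RT112 level of 5.06 lay near that group's array median of 4.97 and below its stromal marker COL1A1 at 5.34, so no exact fold is given. ABCG1 was alike in both, at 4.403, 4.403 and 4.424 against 4.403, 4.582 and 4.403, below the array median in each line. NR1H3 differed by -0.01 ± 0.03 (adjusted p = 0.912). Both genes held a value common to the 2 lines, and whether their likeness rests on processing was not tested.

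Of the 30 members 9 were higher in treated 5637 in all 3 scalings and 6 lower, against 14.9% and 15.2% of all genes. With at least 2-fold in each scaling 1 was higher and 0 were lower, against 3.66% and 2.73% of all genes. As deposited 11 were called higher and 6 lower, against 17.1% and 15.8%. Calls were more frequent among brighter genes: of the 11233 brighter genes tested alone, 3259 were called higher and 3183 lower as deposited. In that test 12 of the 29 brighter members were called higher and 6 lower. The member counts are therefore read as a description of the list. Late enzymes were among the higher. NSDHL stood at 10.86, 11.00 and 10.95 in treated 5637, above all treated RT112 arrays, a log2 difference of 1.02 ± 0.08 (adjusted p = 1.76e-05, limma). DHCR7 stood at 9.18, 9.21 and 9.21, with a difference of 1.01 ± 0.07 (adjusted p = 9.25e-06), and SQLE at 9.05 ± 0.02, with a difference of 0.93 ± 0.14 (adjusted p = 0.00103). Both mean levels lay between those of treated and untreated RT112. CYP51A1 differed by 0.54 ± 0.10, SOAT1 by 0.69 ± 0.11, STARD4 by 0.61 ± 0.07 and ACAT2 by 0.40 ± 0.10.

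HMGCS1, the member that rose most in RT112, was at 9.06, 9.29 and 8.76 in treated 5637, higher than treated RT112 by 0.48 ± 0.12 (adjusted p = 0.0166, limma). That call was lost without treated RT112 replicate 2 (adjusted p = 0.0576) or without treated 5637 replicate 1 (adjusted p = 0.051), and with the 6 treated arrays alone (adjusted p = 0.0686). MSMO1, the enzyme gene with the largest fall in RT112, did not differ beyond the spread, at 8.39, 8.29 and 8.50 in treated 5637 (0.09 ± 0.11, adjusted p = 0.621). LRP8 was lower still in treated 5637, at 6.22, 6.11 and 6.44, by a log2 difference of -0.66 ± 0.09 (adjusted p = 0.000486). The regulators SREBF2 and SCAP were lower too, with log2 differences of -0.24 ± 0.05 and -0.38 ± 0.06. MVK, MVD and IDI1 were likewise lower, at -0.21 ± 0.05, -0.36 ± 0.09 and -0.40 ± 0.07, and MVK lost its call without treated RT112 replicate 3 (adjusted p = 0.0546). INSIG1, INSIG2, PMVK, FDPS, GGPS1, LSS, MSMO1, EBP, SC5D, NPC1, ABCG1 and NR1H3 passed neither as deposited nor after centring or quantile normalization. Of these, FDPS, GGPS1, LSS, EBP, NPC1, ABCG1 and NR1H3 held a value common to both lines. HSD17B7 did not pass in these either (0.24 ± 0.09, adjusted p = 0.0675, limma), but passed with arrays centred on the medians of all rows (0.28, adjusted p = 0.0326), without dim genes (adjusted p = 0.0424) and without treated 5637 replicate 3 (adjusted p = 0.0145). SC5D passed without treated RT112 replicate 3 (adjusted p = 0.0269) and INSIG1 with the 6 treated arrays alone (adjusted p = 0.0401). The genes TM7SF2 and LPIN1 passed as deposited and after centring but not after quantile normalization, with differences of 0.15 ± 0.03 and 0.19 ± 0.04.

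**Figure D4:**
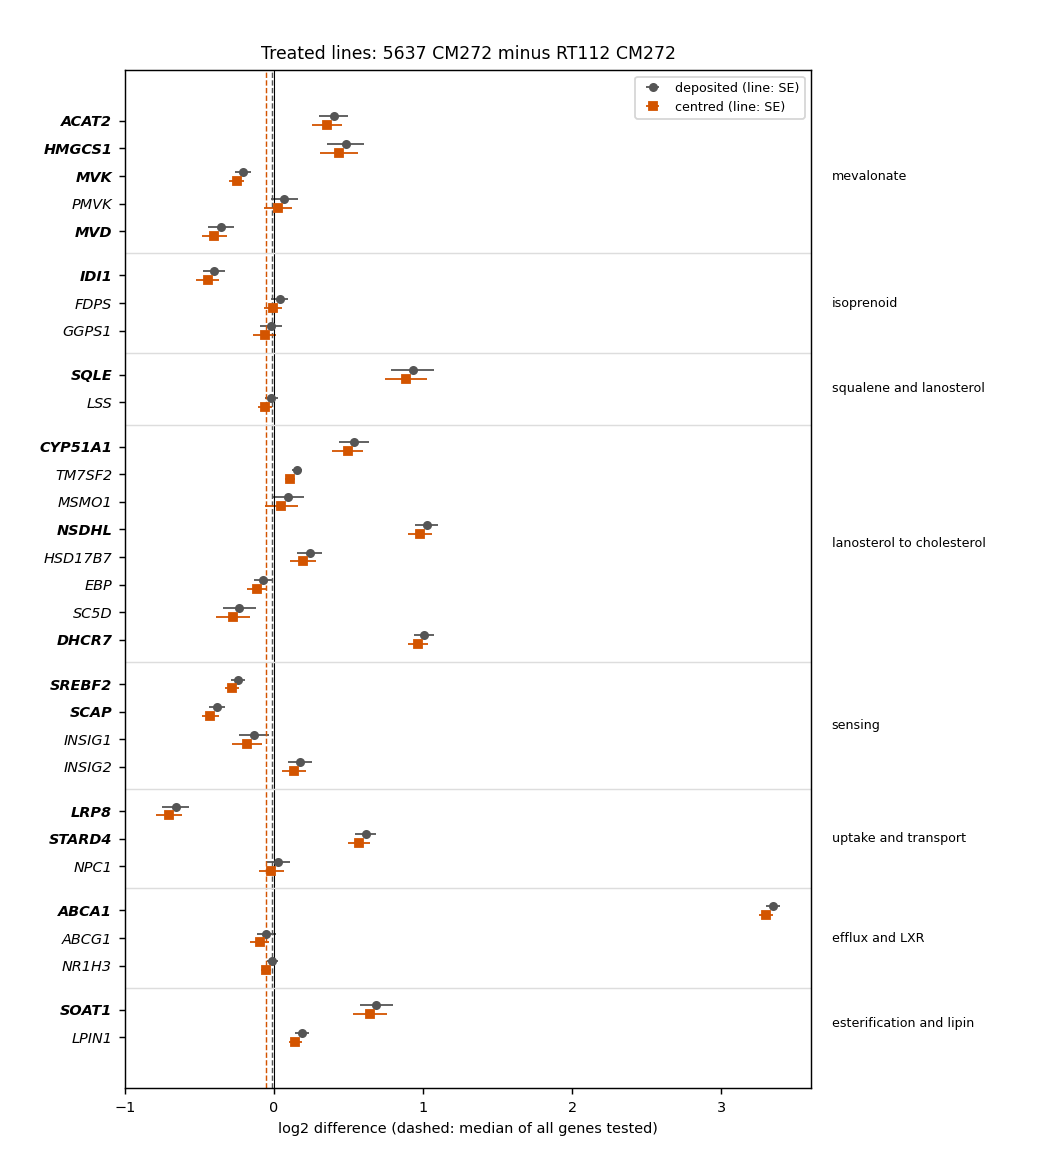
Log2 difference of each member between treated 5637 and treated RT112 (horizontal axis, 5637 minus RT112), as deposited (grey circles) and after centring (orange squares), with the SE of the limma fit as a line. Bold names mark the 9 members higher and the 6 lower in all 3 scalings, and ABCA1 at 3.35 lies far from the others, which lie between -0.66 and 1.02.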

How the data were processed

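Per the submitters' processing notes, the authors used RMA and the Affymetrix Expression Console. They deposited log2 values as 1 table with a column per array, and the untreated 5637 columns were left out. No source used here gives the versions or the build, or says whether a further step set the scale. The number of arrays, 3 in each group, limits the precision. GEO's platform annotation gave 1 gene symbol to 23781 rows, several to 1543 and none to 45199. For the 479 genes with more than 1 row the brightest over the 9 arrays was taken, and no member was among them. Of 22465 symbols, 22167 stand in the RefSeq table (GRCh38.p14).

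Tests used limma 3.58.1 under R 4.3.3 (lmFit on the means of 3 groups, eBayes, 6 residual degrees of freedom, Benjamini-Hochberg over all genes, threshold 0.05). The procedure was tested on simulated arrays with equal noise in every gene, no tied values and no shift of whole arrays, unlike these data. The 3 scalings were no change, centring of each array on its median over tested genes, and quantile normalization over the 9 arrays. All members are named; of the further list the 4 highest and 4 lowest changes called in all 3 scalings. The members and lists were chosen with earlier results of these data known. The labels do not say whether replicate numbers pair the arrays. Same-numbered treated and untreated RT112 arrays correlated in their deviations from the group means at r between -0.0889 and -0.0588. For differently numbered arrays r lay between 0.0058 and 0.0804. These correlations cannot show whether the arrays were paired. Alternatives left out single arrays, dim genes or genes with equal replicates, fitted fewer groups, an intensity trend or a replicate block, or averaged the rows of a gene.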

Additional observations from a re-analysis of the deposited data

How the results depend on the processing

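In RT112 the deposited values called 2433 genes higher and 16660 lower, and the scalings moved these counts to 7608 and 7814 after centring, 7017 and 8351 after quantile normalization and 8937 and 6285 with arrays centred on the medians of all rows, a setting added after seeing the data. For the members the same counts were 5 and 21, then 12 and 11, 10 and 13, and 15 and 11. Leaving out genes below the median level gave 7026 lower genes, since fewer genes were tested. Leaving out genes with 3 equal replicates left 3 further cholesterol genes rising and, between treated lines, 7 members called higher and 2 lower as deposited and 2 lower in all scalings, again from fewer genes.

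Leaving out 1 array at a time gave, in RT112, 2296 to 2379 higher and 16243 to 16405 lower genes, 4 to 5 and 20 to 21 members as deposited, 4 to 5 and 11 to 11 members in all scalings, and 4 to 5 and 12 to 14 further genes. Between treated lines it gave 3416 to 3624 and 3100 to 3324 genes, 10 to 12 and 6 to 6 members, and 7 to 8 and 5 to 6 in all scalings.

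These changes turned their sign in RT112, as log2 values. After centring: ACAT2 0.50, MVD 0.091, FDPS 0.13, GGPS1 0.37, CYP51A1 0.44, HSD17B7 0.20, SCAP 0.044, INSIG2 0.19, NPC1 0.27, NR1H3 0.50 and LPIN1 0.32. After quantile normalization: ACAT2 0.24, MVD 0.0049, GGPS1 0.30, CYP51A1 0.31, HSD17B7 0.061, NR1H3 0.46 and LPIN1 0.25. With medians of all rows: ACAT2 0.59, MVD 0.18, FDPS 0.21, GGPS1 0.45, LSS 0.074, CYP51A1 0.52, HSD17B7 0.29, EBP 0.075, SCAP 0.13, INSIG2 0.27, NPC1 0.36, NR1H3 0.58 and LPIN1 0.41. With 1 array left out at a time, ACAT2 ranged from -0.14 to 0.045 (above 0 without untreated replicate 3) and IDI1 from -0.0055 to 0.11 (below 0 without untreated replicate 1). Between treated lines, after centring: FDPS -0.0065 and NPC1 -0.018. After quantile normalization: FDPS -0.0012. With medians of all rows: GGPS1 0.022, LSS 0.024 and NR1H3 0.031. With 1 array left out, GGPS1 ranged from -0.031 to 0.0047 and ABCG1 from -0.083 to 0.0069, both above 0 without treated RT112 replicate 2. NPC1 ranged from -0.037 to 0.060 (below 0 without treated 5637 replicate 2). NR1H3 ranged from -0.0155 to 0.0000, so its difference reached 0 without turning its sign. A shift of whole arrays changes every gene alike, so sign changes under centring follow from its construction; for the others the cause was not tested.

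With the replicate number as a block, 4 members rose and 11 fell in RT112 in all scalings, and 7 were higher and 4 lower between treated lines. The lost calls as deposited were GGPS1 and NSDHL in RT112 and HMGCS1, MVK, MVD, SOAT1 and LPIN1 between lines. Whether the numbers pair the arrays is not known. The call of GGPS1 as deposited was also lost with the 6 RT112 arrays alone (adjusted p = 0.0781) and without any 1 of 4 arrays. The falls of MSMO1, DHCR7, LRP8 and STARD4 and the rise of HMGCS1 in RT112 kept direction and call in every alternative that tested them. LRP8 and STARD4 were not tested where genes with equal replicates were left out.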
